A study of Mus musculus with 16 samples.

Results

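Described here are the genes that carry a cell through mitosis and separate its chromosomes, in tumours of the human adrenocortical carcinoma line H295R grown in SCID mice. The members were chosen by identifier: 39 RefSeq transcripts were listed, and the array carried 36 of them. The identifiers listed for BIRC5 (NM_001168), UBE2C (NM_007019) and ZWINT (NM_007057) were not on it and were not analysed here. The 36 were among 29094 identifiers on the array and 20216 transcripts tested. The symbols are those paired with the identifiers in the list that defined the set, because the array files name these probes by accession only.

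The mice, labelled male, were inoculated with H295R cells and treated by mouth for 28 days. The control group received the corn oil vehicle, the mitotane group mitotane, the 9-cisRA group 9-cis retinoic acid, and the combined group both agents. Every group therefore shared the host strain, which lacks mature T and B cells, and the xenografted line. The doses and ages of the animals are not given in the sources used here, and the labels do not say whether RNA of several animals was pooled. Arrays of all 4 groups were analysed: control, mitotane and 9-cisRA with n = 4 each, and combined with n = 3. A further array, combined replicate 3, was available only as a column of the series value table. The array is a human design per the file headers, although the organism label of the samples is the mouse. The human identity of the tumour RNA could not be checked against adrenocortical markers, since no table pairing human identifiers with symbols was used here.

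Entry into mitosis is driven by cyclin B bound to the kinase CDK1, which the phosphatase CDC25C activates. The kinetochore joins each chromosome to the spindle, and the spindle checkpoint withholds anaphase until all chromosomes are attached. The anaphase-promoting complex with its activator CDC20 then marks cyclin B and securin, the product of PTTG1, for destruction, and the sister chromatids part. Transcripts of this machinery peak in G2 and M phase under the control of FOXM1 and MYBL2, so that in bulk tissue they are widely used as a sign of how many cells are dividing. Mitotane is an adrenolytic drug used against adrenocortical carcinoma, and 9-cisRA is a ligand of the retinoic acid and retinoid X receptors. In bulk RNA, fewer dividing cells and less transcript per dividing cell cannot be told apart.

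All 36 genes were well above background on all 15 arrays, so none entered the tests through 1 group alone. Levels are given as the log2 of the processed signal relative to the array's 75th percentile, where 0 is the percentile itself. Between 57.9% and 75.9% of probes were above background on an array, and the 75th percentile lay between 551.5 and 1061 intensity units on 14 arrays and at 224.2 on control replicate 4. Each of the 4 slides held 1 array of each group, and the replicate number is the slide. 9-cisRA sat at array position 4 on every slide, so position and 9-cisRA treatment cannot be told apart. P-values measure only the spread between these samples, which may be technical in part, and the small number of arrays limits the precision.

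Control replicate 4 stood apart from the other 3 controls, and results against control are given with and without it. Of the 36 genes, 30 were lower on it than on any other control, and the other 6 were higher than on any. Most of the array did likewise: of all 20216 transcripts, 11082 were below and 7355 above every other control. The median difference from the mean of the other controls was -0.75 over the mitosis genes and -0.32 over all 20216 transcripts. The 6 higher genes were PLK1, by 2.72, then CDC20 by 1.54, BUB1 by 1.53, CDK1 by 1.39, CCNA2 by 0.68 and BUB1B by 0.20. The furthest below were TOP2A at -1.27, ECT2 at -1.17, TTK at -1.16, CCNB1 at -1.15 and ANLN at -1.12. A second, much dimmer probe of PLK1 differed by only 0.11, so the probes of this gene did not move together. Probes disagreed for MKI67 as well: the 3 probes differed from the other controls by -0.58, 0.62 and -0.89. The median correlation of this array with the others was 0.87, against 0.98 to 0.99 elsewhere.

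**Figure D1:**
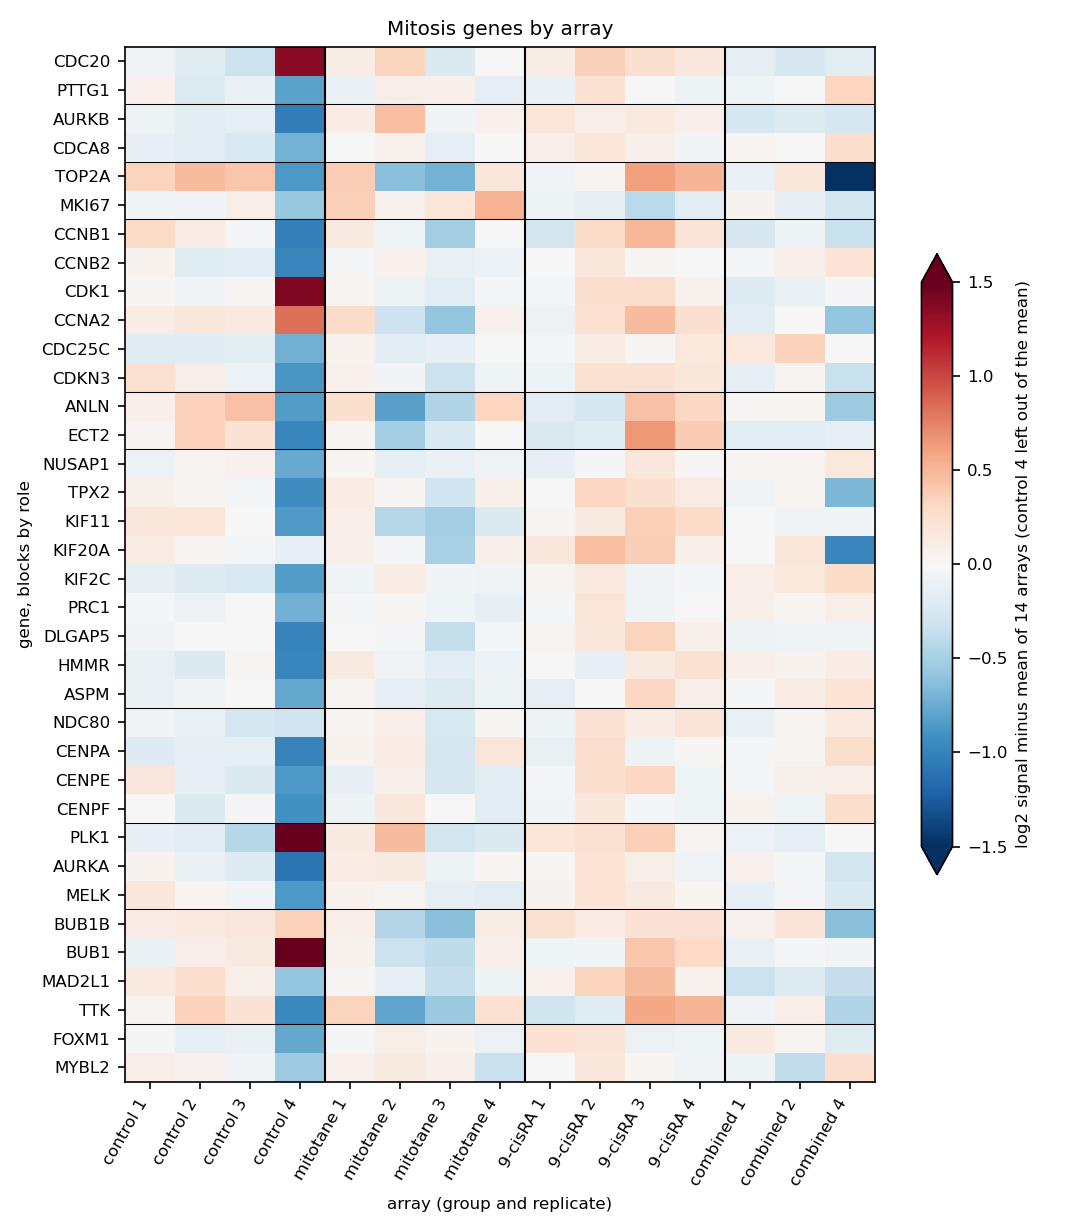
Each row is a mitosis gene, in blocks by role, and each column an array; colour is the log2 signal minus that gene's mean over the 14 arrays other than control 4, and the colour scale is cut at the ends of its bar. Control 4 is blue for 30 genes and red for 6, while TOP2A and KIF20A are darkest blue on combined 4.

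No mitosis gene passed an adjusted p of 0.05 in any of the 7 comparisons (limma, Benjamini-Hochberg over all transcripts). The share of all tested transcripts called at that threshold was 0% in each. At an unadjusted p under 0.05 the mitotane group had 3 genes higher than control (background 6.04% of all transcripts), the 9-cisRA group 5 higher (background 3.51%), and the combined group 4 higher and 1 lower (background 13.8%). Combined differed from mitotane in 1 gene (background 4.75%) and from 9-cisRA in 2 (background 9.47%). Mitotane differed from 9-cisRA in 2 genes (background 4.84%), and 1 gene had an interaction of the agents (background 3.71%). The share of the list was 8.33% for mitotane against control, 13.9% for the combination against control, and between 2.78% and 5.56% in the comparisons without a control group and in the interaction, all near their background. For 9-cisRA against control the share was 13.9%, made up of AURKB, CDCA8, CDC25C, KIF2C and NDC80. Without control replicate 4, described above, these 5 were joined by PLK1 and CDC20 (19.4% of the list, background 4.34%). The count moved between 3 and 11 when single arrays were left out, at the lowest (8.33%, background 2.94% and 2.85%) without 9-cisRA 1 or 9-cisRA 4 and at the highest (30.6%, background 9.44%) without control 1. It was 0 when only the control and 9-cisRA arrays entered the fit (background 1.5%). A missed threshold does not show that levels were alike: the 95% interval of the TOP2A change under combined treatment, for example, ran from -1.54 to 0.33.

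Over all arrays most genes were above control in each treated group. Of all transcripts, 61.5% were above control with mitotane, 53.9% with 9-cisRA and 58.7% with the combination. Under 9-cisRA 31 of 36 genes were above control, with a median log2 change of 0.29 against 0.03 over all transcripts. Mitotane gave 23 higher and 13 lower, median 0.13 against 0.09, and the combination 22 higher and 14 lower, median 0.08 against 0.09. The 3 comparisons share the control arrays. Without control replicate 4 the median was 0.11 for 9-cisRA, with 31 of 36 genes higher. It became -0.05 for mitotane, with 16 higher, and -0.07 for the combination, with 17 higher. Hence the direction of the list for mitotane and for the combination rested on that 1 array. Over all transcripts the medians without it were 0.08 for mitotane, with 64.4% higher, and 0.08 for the combination, with 60.9% higher. For 9-cisRA the median over all transcripts was then 0.02, with 53.6% higher. On slide 1, moreover, 9-cisRA was above control for only 14 of 36 genes (median -0.04), against 27 on slide 2 (0.22), 32 on slide 3 (0.27) and 30 on slide 4 (0.82), the slide of control 4. The medians of all transcripts on slides 1 to 4 were 0.03, -0.03, 0.05 and 0.30.

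**Figure D2:**
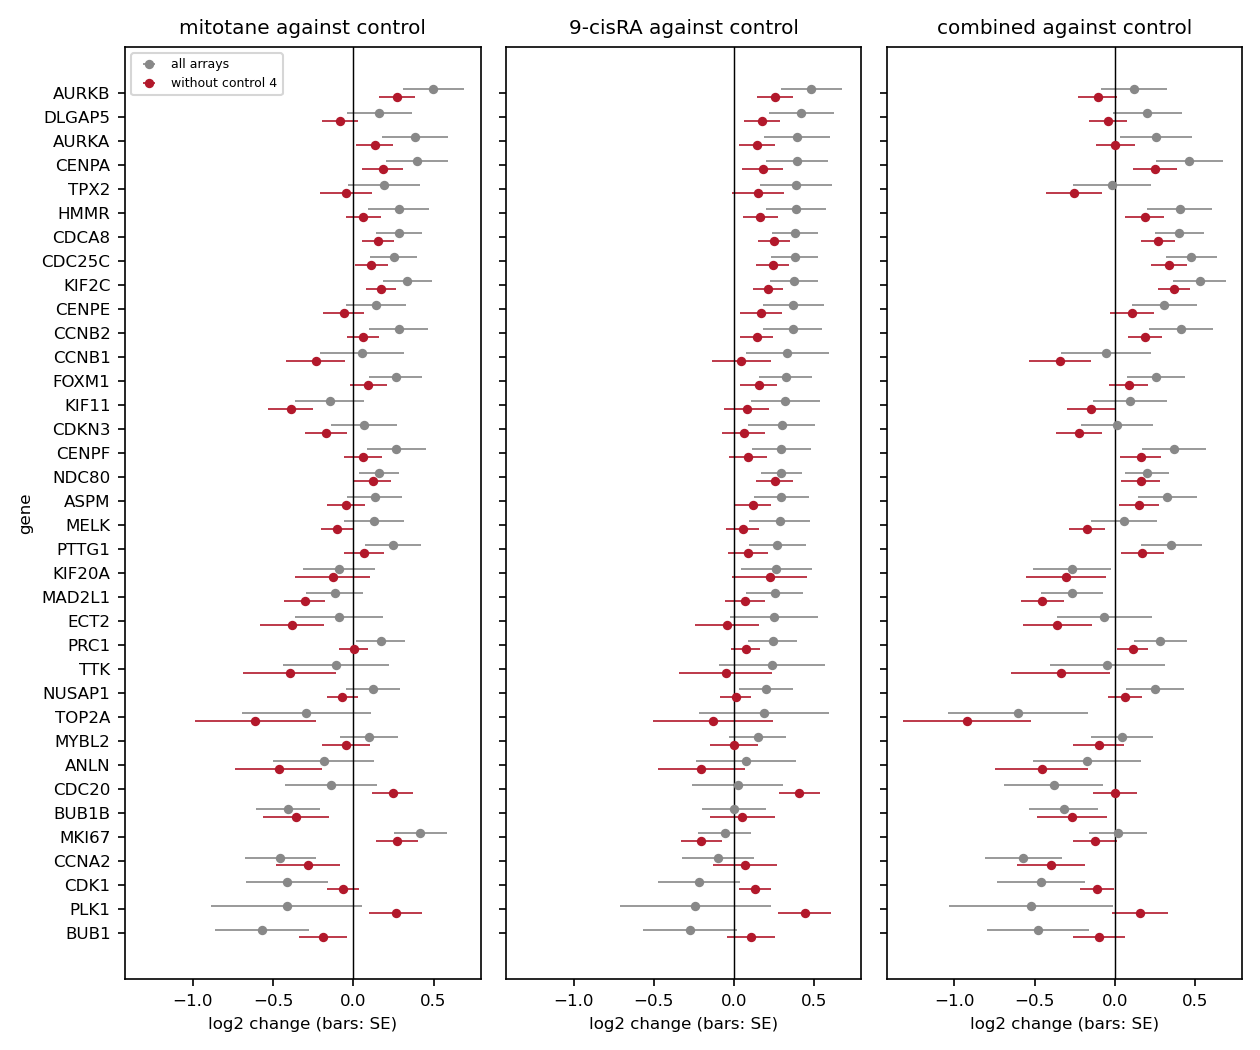
Points are log2 changes from control of the 36 genes with standard errors as bars, from all arrays in grey and without control 4 in red, sorted by the 9-cisRA change. Removing control 4 moves most genes to the left and PLK1, CDC20, CDK1, BUB1, CCNA2 and BUB1B to the right.

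Among the regulators of mitotic entry, 6 genes were on the array: the cyclins CCNA2 (NM_001237), CCNB1 (NM_031966) and CCNB2 (NM_004701), the kinase CDK1 (NM_001786), its activating phosphatase CDC25C (NM_001790) and the phosphatase CDKN3 (NM_005192). CDC25C read -0.95, -0.96, -0.94 and -1.50 in controls 1 to 4. It read -0.73, -0.94, -0.90 and -0.79 under mitotane, -0.79, -0.67, -0.76 and -0.62 under 9-cisRA, and -0.62, -0.43 and -0.79 in combined 1, 2 and 4. Neither the 9-cisRA nor the combined arrays overlapped the controls. The log2 change was 0.38 (SE 0.15, adjusted p = 0.74 in limma) with 9-cisRA and 0.48 (SE 0.16, adjusted p = 0.24 in limma) with the combination. Without control 4 these were 0.24 and 0.34. Of the 36 genes, 6 were above every control on all 9-cisRA arrays, 16.7% of the list beside 2.39% of all transcripts without overlap. With the combination 6 were above and 1 below every control, 19.4% beside 15.2%, and with mitotane 2 and 1, 8.33% beside 4.24%. Leaving out control 4 gave 25% beside 6.92% for 9-cisRA, 41.7% beside 29.1% for the combination and 13.9% beside 10.5% for mitotane.

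CCNA2, the cyclin of S phase and early mitosis, read -0.14, -0.08, -0.10 and 0.58 in control. Mitotane arrays read 0.03, -0.56, -0.83 and -0.18, and combined arrays -0.42, -0.26 and -0.83, all below every control. The combined change was -0.57 (SE 0.24, unadjusted p = 0.033, adjusted p = 0.32 in limma), or -0.40 without control 4. The 9-cisRA arrays, at -0.34, -0.02, 0.23 and -0.01, spanned controls 1 to 3 and lay below control 4.

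CCNB1 and CDK1 have products that pair as the mitotic kinase. CCNB1 read 2.95, 2.79, 2.64 and 1.65 in control, 2.80, 2.61, 2.16 and 2.68 with mitotane, 2.39, 2.94, 3.16 and 2.86 with 9-cisRA, and 2.42, 2.59 and 2.34 with both. The combined arrays were thus below controls 1 to 3, but all were above control 4, and the change of -0.05 (SE 0.28) became -0.34 without that array. CDK1 read 1.94, 1.89, 1.97 and 3.32 in control, 1.95, 1.85, 1.75 and 1.91 with mitotane, 1.91, 2.17, 2.19 and 1.98 with 9-cisRA, and 1.73, 1.83 and 1.91 with both. The highest combined and the lowest 9-cisRA array both rounded to 1.91, the groups just missed each other, and the difference was -0.24 (SE 0.28). CCNB2 ranged from 3.64 to 4.02 on the 14 arrays without control 4, and CDKN3 from 1.91 to 2.47.

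FOXM1 (NM_202002) and MYBL2 (NM_002466), are the transcription factors of the G2 and M programme. FOXM1 read 1.58, 1.47, 1.49 and 0.83 in control, 1.57, 1.69, 1.65 and 1.51 with mitotane, 1.81, 1.80, 1.51 and 1.53 with 9-cisRA, and 1.73, 1.65 and 1.42 with both. Its 9-cisRA change was 0.32 (SE 0.17, adjusted p = 0.74 in limma), or 0.15 without control 4, and the 9-cisRA arrays fell into a higher pair on slides 1 and 2 and a lower pair on slides 3 and 4. MYBL2 had group means between -1.04 and -0.90.

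Of the mitotic kinases, PLK1 (NM_005030) acts at centrosomes, kinetochores and cytokinesis, AURKA (NM_198433) builds the spindle poles, and MELK (NM_014791) is a kinase of proliferating cells. PLK1 read -1.42, -1.46, -1.72 and 1.19 in control, -1.16, -0.83, -1.57 and -1.51 with mitotane, -1.11, -1.06, -0.94 and -1.26 with 9-cisRA, and -1.39, -1.43 and -1.31 with both. Without control 4, all 9-cisRA arrays were above the controls and the change was 0.44 (unadjusted p = 0.018, adjusted p = 0.98 in limma). With it, the change was -0.24 (SE 0.47). The second PLK1 probe gave 0.22 with 9-cisRA, 0.39 with mitotane and 0.50 with both over all controls. This probe was much dimmer, with a mean of -3.21 against -1.13, and correlated with the first at only r = 0.17 outside control 4. AURKA read 0.48, 0.33, 0.23 and -0.66 in control, 0.55, 0.56, 0.36 and 0.46 with mitotane, 0.44, 0.64, 0.52 and 0.38 with 9-cisRA, and 0.49, 0.42 and 0.16 with both. Only control 4 lay below 0. Its changes of 0.39 with mitotane, 0.40 with 9-cisRA and 0.26 with both shrank to 0.13, 0.14 and 0.0038 without control 4.

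The chromosomal passenger complex corrects faulty attachments and guides cytokinesis, and 2 of its subunits were measured, the kinase AURKB (NM_004217) and borealin, CDCA8 (NM_018101). AURKB read -1.51, -1.60, -1.58 and -2.47 in control. It was higher with mitotane, at -1.33, -0.98, -1.48 and -1.37, and with 9-cisRA, at -1.25, -1.34, -1.28 and -1.35, with no overlap. Combined 1, 2 and 4, at -1.69, -1.62 and -1.69, lay below every mitotane and every 9-cisRA array and below controls 1 to 3. In the series value table, combined 3 read 0.0034, below every 9-cisRA array but above mitotane 3 at -0.016. It was also above controls 1 to 3, which read -0.0034, -0.10 and -0.075 there. The change was 0.50 (SE 0.19, unadjusted p = 0.021, adjusted p = 0.71 in limma) with mitotane, 0.48 (SE 0.19, unadjusted p = 0.025, adjusted p = 0.74 in limma) with 9-cisRA and 0.12 (SE 0.21) with both. Without control 4 these were 0.27, 0.26 and -0.11, so the combined change turned sign. The interaction, which measures how far the combination departs from the sum of the single changes, was -0.86 (SE 0.28, unadjusted p = 0.0088, adjusted p = 0.97 in limma). It was -0.63 without control 4, and on slides 1, 2 and 4 it ranged from -1.44 to -0.63. Slide 3 is not in that range. There the series value table read 0.0034 for combined, -0.016 for mitotane, 0.21 for 9-cisRA and -0.075 for control, closer together than that range. Over the alternative fits described below, the interaction ran from -0.95 to -0.56.

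CDCA8 did not follow AURKB in the combination. It read 2.64, 2.61, 2.54 and 2.06 in control, 2.76, 2.84, 2.64 and 2.76 with mitotane, 2.87, 2.94, 2.84 and 2.72 with 9-cisRA, and 2.80, 2.76 and 3.03 with both. All 9-cisRA and all combined arrays were above all controls. The change was 0.38 (SE 0.14, unadjusted p = 0.018, adjusted p = 0.74 in limma) with 9-cisRA and 0.40 (SE 0.16, adjusted p = 0.29 in limma) with both. Without control 4 these were 0.25 and 0.27.

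Of the spindle checkpoint, 4 transcripts were measured, and none passed the test against control. BUB1 (NM_004336) and BUB1B (NM_001211) encode checkpoint kinases of the kinetochore, TTK (NM_003318) the kinase that starts the signal, and MAD2L1 (NM_002358) the inhibitor of CDC20. The group mean of all 4 was below control with mitotane, median -0.26 with all controls and -0.33 without control 4. It was also below control for all 4 with the combination, median -0.29 and -0.30. For BUB1, BUB1B and TTK the lowest mitotane arrays were 2 and 3, and on its own slide each mitotane array was below control for BUB1B, 3 of 4 for BUB1 and MAD2L1, and 2 of 4 for TTK. With 9-cisRA, 3 of 4 were higher, median 0.12 and 0.06. None of the 4 had an unadjusted p under 0.05 in limma against control over all arrays. Without control 4 MAD2L1 did, by -0.30 with mitotane (unadjusted p = 0.032 in limma) and -0.45 with the combination (unadjusted p = 0.0052 in limma). In that setting 7.68% and 18.3% of all transcripts were under 0.05 unadjusted, and no mitosis gene passed an adjusted p of 0.05.

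MAD2L1 read 1.11, 1.22, 1.04 and 0.38 in control and 0.97, 0.82, 0.60 and 0.88 with mitotane. It read 1.02, 1.29, 1.43 and 1.01 with 9-cisRA, above every mitotane array, and 0.63, 0.76 and 0.62 with both, again without overlap with 9-cisRA. The difference of combined from 9-cisRA was -0.52 (SE 0.19, unadjusted p = 0.018, adjusted p = 0.41 in limma), and that of mitotane from 9-cisRA -0.37 (SE 0.18, adjusted p = 1.00 in limma). Neither difference contains the control arrays.

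BUB1B read 1.70, 1.73, 1.75 and 1.93 in control, 1.69, 1.14, 0.96 and 1.69 with mitotane, 1.81, 1.70, 1.80 and 1.80 with 9-cisRA, and 1.65, 1.77 and 0.96 with both. Each mitotane array was thus below each control, 2 of them far below. The mitotane change was -0.41 (SE 0.20, adjusted p = 0.71 in limma), or -0.36 without control 4. BUB1 read 0.59, 0.79, 0.83 and 2.27 in control, 0.75, 0.37, 0.31 and 0.76 with mitotane, 0.62, 0.65, 1.10 and 1.00 with 9-cisRA, and 0.58, 0.68 and 0.66 with both. Its mitotane change of -0.57 became -0.19 without control 4. TTK was lowest on mitotane 2 at -1.11, apart from control 4 at -1.28, and highest on 9-cisRA 3 at 0.26.

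The kinetochore and centromere genes were above control in each treatment over all arrays. NDC80 (NM_006101) encodes a subunit of the complex that grips microtubules, CENPA (NM_001809) the histone that marks the centromere, and CENPE (NM_001813) and CENPF (NM_016343) a kinesin and a matrix protein of the kinetochore. The medians of the 4 genes were 0.21 for mitotane, 0.33 for 9-cisRA and 0.34 for the combination. Without control 4 the medians were 0.09, 0.17 and 0.16, with 3, 4 and 4 of 4 higher. CENPA read -0.28, -0.23, -0.21 and -1.09 in control and -0.10, -0.04 and 0.18 with both agents, without overlap. NDC80 group means were 2.32 ± 0.12 (SD, n = 4) in control, 2.48 ± 0.14 (SD, n = 4) with mitotane, 2.61 ± 0.13 (SD, n = 4) with 9-cisRA and 2.52 ± 0.13 (SD, n = 3) with both.

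The control of anaphase was represented by CDC20 (NM_001255), the activator of the anaphase-promoting complex, and PTTG1 (NM_004219), securin. CDC20 read -0.04, -0.17, -0.31 and 1.36 in control, 0.13, 0.34, -0.21 and 0.02 with mitotane, 0.13, 0.37, 0.26 and 0.18 with 9-cisRA, and -0.12, -0.24 and -0.16 with both. Combined 1, 2 and 4 were each below each 9-cisRA array. In the series value table, however, combined 3 read 0.08, above 9-cisRA 1 at 0.07. PTTG1 ranged from 4.91 to 5.43 on the 14 arrays other than control 4, where it read 4.31.

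The kinesins and spindle proteins made up the largest group, with 9 genes. KIF11 (NM_004523) pushes the spindle poles apart, KIF20A (NM_005733) acts at the central spindle, KIF2C (NM_006845) shortens microtubules at centromeres, and PRC1 (NM_003981) bundles them in the midzone. TPX2 (NM_012112) activates AURKA, and NUSAP1 (NM_016359), DLGAP5 (NM_014750), HMMR (NM_012484) and ASPM (NM_018136) bind or organise spindle microtubules. All 9 were above control with 9-cisRA, median 0.32, and all 9 still were without control 4, median 0.15. With mitotane 7 of 9 were higher over all arrays and 3 of 9 without control 4.

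KIF2C had the smallest unadjusted p of the list against control. It read 2.21, 2.17, 2.13 and 1.52 in control, 2.29, 2.47, 2.31 and 2.30 with mitotane, 2.40, 2.50, 2.30 and 2.32 with 9-cisRA, and 2.46, 2.51 and 2.63 with both. Every treated array was above every control. The changes were 0.34 (SE 0.15), 0.37 (SE 0.15) and 0.53 (SE 0.16), the last with unadjusted p = 0.0061 and adjusted p = 0.24 in limma. Without control 4 they were 0.17, 0.21 and 0.37.

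KIF11 and KIF20A had an unadjusted p under 0.05 in limma over all arrays only in a comparison with 9-cisRA, and neither passed adjustment. KIF11 read 1.59, 1.60, 1.43 and 0.57 in control, 1.52, 0.99, 0.90 and 1.20 with mitotane, 1.44, 1.56, 1.77 and 1.71 with 9-cisRA, and 1.42, 1.37 and 1.38 with both. Mitotane was lower than 9-cisRA by a log2 difference of -0.47 (SE 0.21, unadjusted p = 0.047, adjusted p = 1.00 in limma), with mitotane 1 inside the 9-cisRA range. KIF20A read 0.24, 0.14, 0.09 and -0.0041 in control, 0.20, 0.09, -0.37 and 0.19 with mitotane, 0.28, 0.57, 0.48 and 0.19 with 9-cisRA, and 0.13, 0.30 and -0.87 with both. Its difference of combined from 9-cisRA, -0.53 (SE 0.24, unadjusted p = 0.045, adjusted p = 0.51 in limma), was -0.17 without combined 4. In the series value table combined 3 was low as well, at -0.44 against 0.03 to 0.43 with 9-cisRA. TPX2 read 1.91, 1.85, 1.80 and 0.89 in control, 1.94, 1.84, 1.53 and 1.91 with mitotane, 1.84, 2.15, 2.06 and 1.96 with 9-cisRA, and 1.78, 1.86 and 1.16 with both. Combined 4 was its lowest treated array, and its interaction was -0.60 (SE 0.33), or -0.36 without control 4. Combined 3 read -0.41 for TPX2 in the series value table, against 0.01 to 0.32 with 9-cisRA.

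In cytokinesis, ANLN (NM_018685) encodes anillin, the scaffold of the contractile ring, and ECT2 (NM_018098) the exchange factor that activates RhoA there. ANLN ranged from -0.55 to -0.18 in controls 1 to 3, from -1.43 to -0.30 with mitotane, from -0.88 to -0.18 with 9-cisRA and from -1.17 to -0.59 with both. Over all controls the medians of the 2 genes were -0.14 for mitotane, 0.16 for 9-cisRA and -0.12 for the combination. Without control 4 they were -0.42, -0.12 and -0.41, with both genes lower than control in each treatment.

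TOP2A (NM_001067), the topoisomerase that untangles sister chromatids, and MKI67 (NM_002417), the antigen Ki-67 that coats mitotic chromosomes, are widely used proliferation markers. TOP2A read 1.61, 1.75, 1.69 and 0.41 in control, 1.64, 0.64, 0.56 and 1.45 with mitotane, 1.23, 1.32, 1.89 and 1.78 with 9-cisRA, and 1.17, 1.45 and -0.33 with both. Its combined change was -0.60 (SE 0.43, adjusted p = 0.55 in limma) and became -0.92 without control 4 (unadjusted p = 0.039, adjusted p = 0.25 in limma). The mitotane change of -0.29 (SE 0.40) became -0.61. The combined change was -0.06 without combined 4, and the mitotane change was -0.15 without mitotane 2 and -0.12 without mitotane 3.

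MKI67 read 1.28, 1.29, 1.43 and 0.76 in control, 1.68, 1.38, 1.50 and 1.84 with mitotane, 1.25, 1.19, 0.92 and 1.15 with 9-cisRA, and 1.37, 1.21 and 1.05 with both. Mitotane arrays were above every 9-cisRA and every combined array. The difference of mitotane from 9-cisRA was 0.48 (SE 0.17, unadjusted p = 0.012, adjusted p = 0.83 in limma), from control 0.42 (SE 0.17, adjusted p = 0.71 in limma), or 0.27 without control 4, and combined was below mitotane by -0.40 (SE 0.18, adjusted p = 1.00 in limma). The brightest of 3 probes gave these values. The other two gave mitotane minus 9-cisRA differences of 0.11 and -0.05, so the difference was not shared by all probes of the gene.

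**Figure D3:**
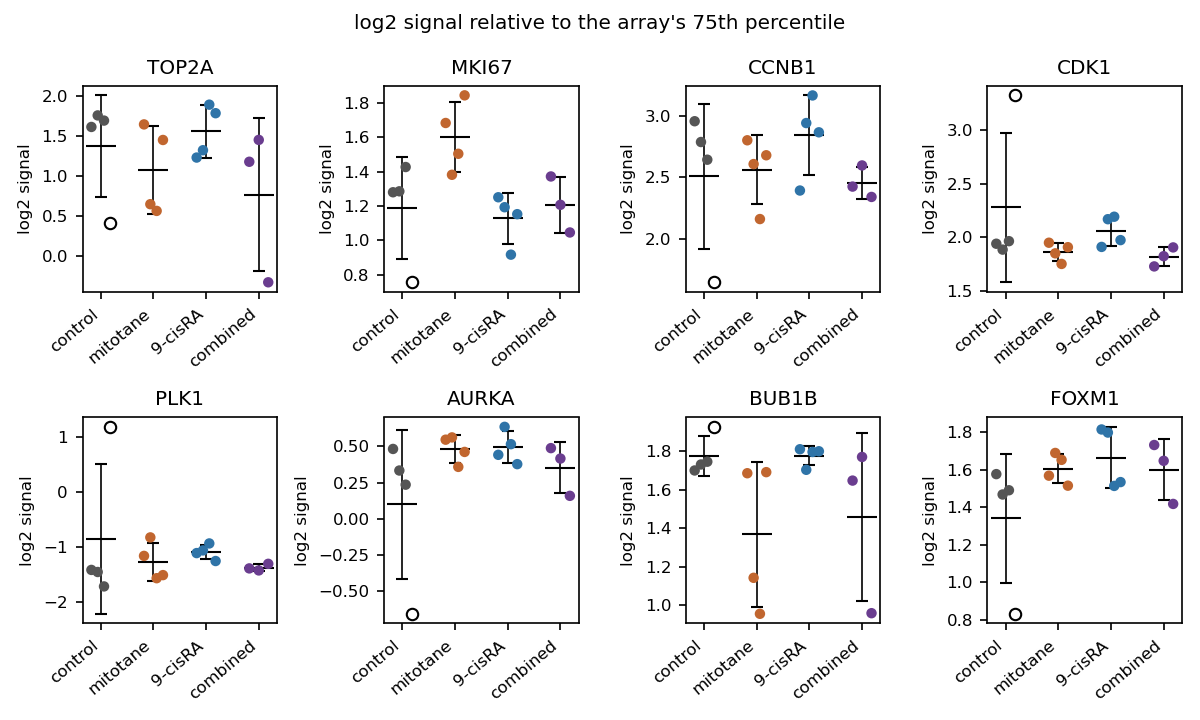
Points are single arrays, bars the group mean and SD of the log2 signal relative to the array's 75th percentile, and the open circle is control 4; the vertical axes differ between genes and do not start at 0. TOP2A and BUB1B split within the mitotane and combined groups, and MKI67 is highest with mitotane.

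Comparisons between the treated groups do not contain the control arrays, which enter only through the shared estimate of spread. Leaving out control 4 therefore kept the differences and raised the genes with an unadjusted p under 0.05 from 1 to 3 for combined against mitotane, from 2 to 8 for combined against 9-cisRA and from 2 to 5 for mitotane against 9-cisRA, beside backgrounds of 11.5%, 19% and 11.2%. Against 9-cisRA, 33 of 36 genes were lower with mitotane, median -0.16 against 0.05 over all transcripts, and 24 of 36 were lower with the combination, median -0.21 against 0.06. All 6 entry regulators, all 9 spindle genes, all 4 checkpoint genes and all 3 kinases were lower with mitotane, and MKI67, AURKB and CENPA were the 3 higher, CENPA by 0.0058 and AURKB by 0.02. The order held on slides 2, 3 and 4, with 31, 30 and 31 genes lower (medians -0.17, -0.45 and -0.11), and was turned on slide 1, with 24 genes higher and a median of 0.07. For the combination the medians were -0.03, -0.18 and -0.15 on slides 1, 2 and 4, with 21, 24 and 25 of 36 lower. With combined 1, 2 and 4, groups did not overlap for 8 genes in the combination against 9-cisRA, all lower: MAD2L1, AURKB, CDC20, MELK, DLGAP5, KIF11, CDK1 and PLK1. That is 22.2% of the list beside 16.4% of all transcripts. In the series value table, combined 3 lay inside the 9-cisRA range for CDC20 and PLK1, at 0.08 and 0.18. It lay below that range for the other genes just named. Combined against mitotane gave 20 genes higher and 16 lower, median 0.03.

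**Figure D4:**
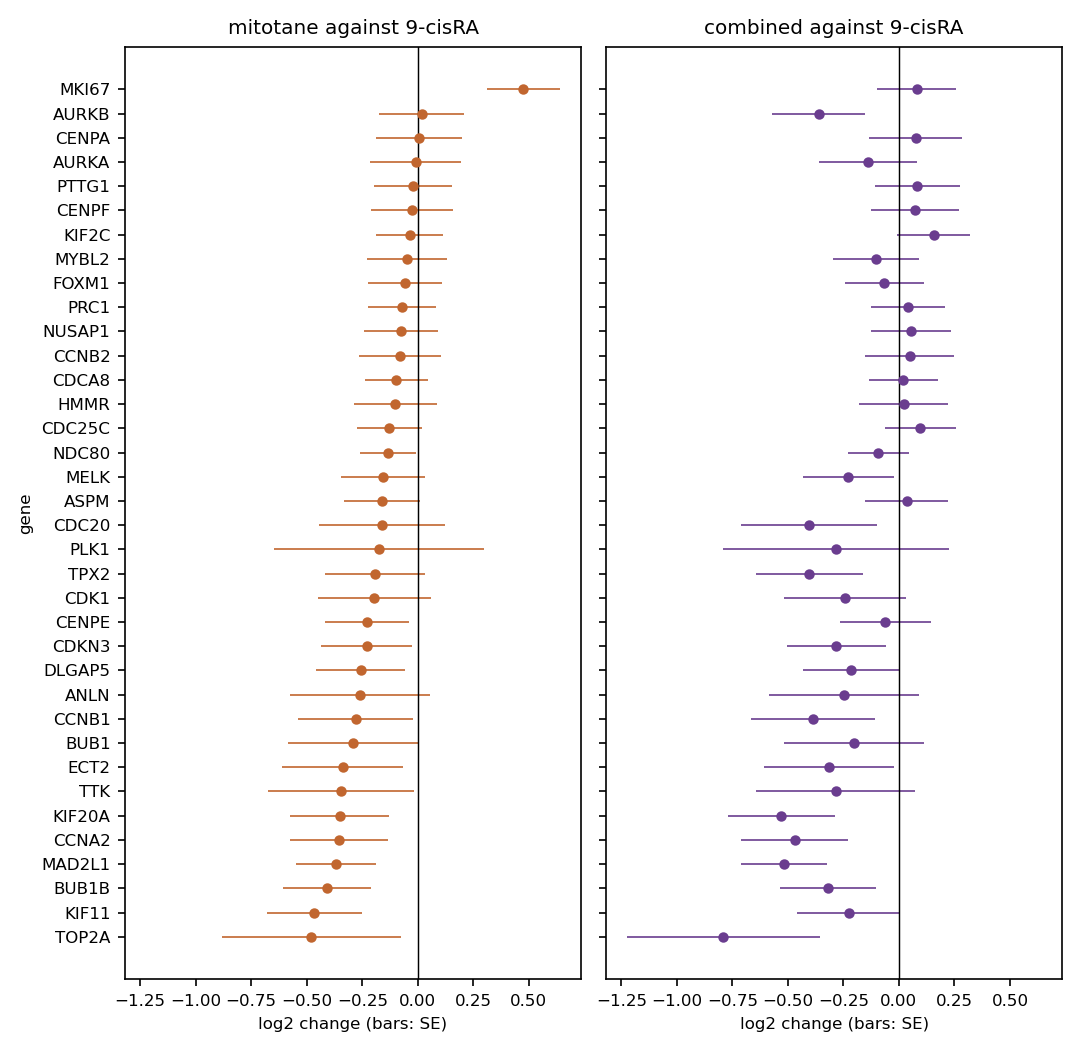
Points are log2 differences of mitotane (left) and combined (right) from 9-cisRA for the 36 genes with standard errors as bars, sorted by the left panel. In the left panel 33 genes lie below 0 and MKI67 stands apart above it; both panels share the 9-cisRA arrays.

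**Figure D5:**
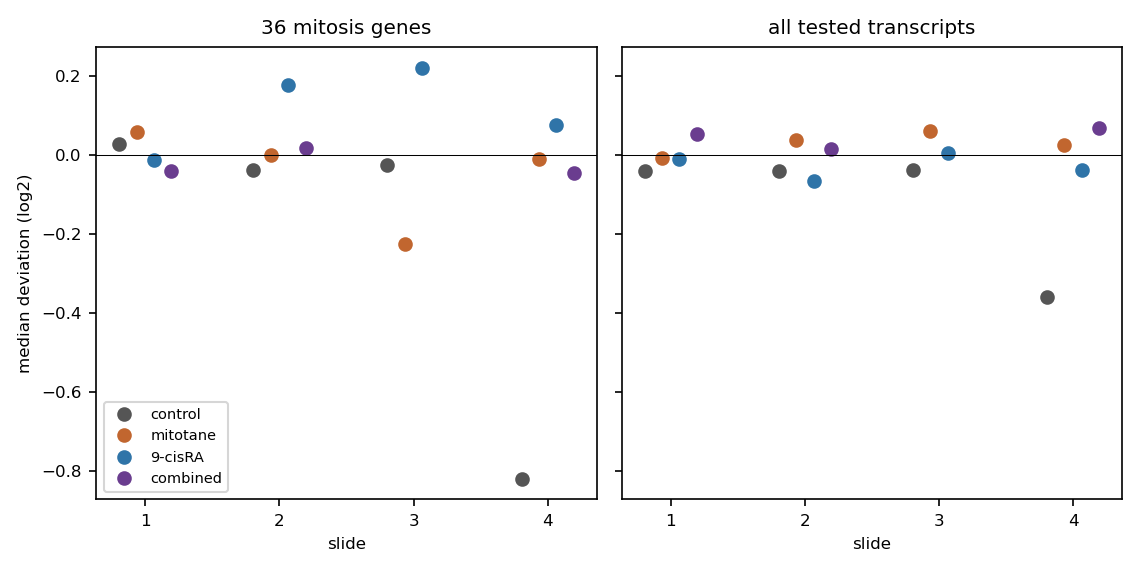
Each point is 1 array: the median over the 36 mitosis genes (left) or all tested transcripts (right) of the log2 deviation from the gene's mean over 14 arrays, by slide. The 9-cisRA points are highest on slides 2, 3 and 4 in the left panel, at 0.17, 0.22 and 0.07, and control 4 is lowest in both panels.

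The interaction was below 0 for 32 of 36 genes, median -0.23 against 0.0015 over all transcripts, and for 26 of 36 without control 4, median -0.11. It was below 0 for 25, 24 and 31 genes on slides 1, 2 and 4, with list medians of -0.07, -0.23 and -0.84. Of all transcripts 56.2%, 50.4% and 44.3% were above 0 on these slides, with medians of 0.05, 0.01 and -0.17. Slide 4 is the slide of control 4.

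Genes also differed in how evenly the arrays of a group matched. Without control 4, the pooled SD within groups was 0.15 at the median of the mitosis genes and 0.21 at the median of all transcripts. The genes with the widest and narrowest spread were picked out after their values were seen. TOP2A had an SD of 0.56, at the 94.8th percentile of all transcripts, followed by TTK at 0.42, ANLN at 0.39 and KIF20A at 0.33. PRC1 had the narrowest, 0.07. Repeat spots of the TOP2A probe on one array had an SD of at most 0.06, or 0.15 on mitotane 2 with a spot there that was marked as an outlier and left out. The low arrays for TOP2A, TTK, ANLN and BUB1B were mitotane 2, mitotane 3 and combined 4. Combined 4 had 57.9% of probes above background, the fewest of the arrays, whereas mitotane 2 and 3 had 73.6% and 72.2%. The part of array quality in these low values was not tested.

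In the authors' value table, where each probe's median over the 16 arrays was 0 within 0.01, combined replicate 3 could be read as well. TOP2A was -0.24, 0.04, -1.18 and -1.74 in combined 1 to 4, BUB1B -0.10, 0.03, -0.63 and -0.78, and TTK -0.07, 0.09, -0.68 and -0.46. Combined 3 and 4 were thus the low arrays of that group for these genes, and KIF2C, at 0.12, 0.18, 0.17 and 0.30, was above 0 on all 4.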

How the data were processed

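The scanner files hold 1 intensity per spot of 1-colour Agilent arrays, deposited as Agilent Feature Extraction output (version 11.0.1 per the submitters' processing notes, 11.0.1.1 per the file headers). The authors also deposited a table of log2 values, whose making the sources used here do not state. Its differences between arrays correlated with those from the scanner output at r = 1.00 after rounding.

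Each spot's processed signal was put on a log2 scale and the 75th percentile of the array, over its 43118 spots that are no controls, was subtracted. Outlier spots were dropped, 5 of the 1455 spots of the mitosis genes over 15 arrays, and spots of a probe were averaged. For genes with more than 1 probe, the brightest stood for an identifier, which concerned 6 of the 36 genes. Tests covered transcripts whose spots all exceeded background throughout 1 or more groups. All groups entered 1 linear model in limma 3.58.1 (R 4.3.3, with version 1.17.8 of the data.table package), with two-sided p-values and Benjamini-Hochberg adjustment over 20216 transcripts. The fit was tested on simulated data. Plots were drawn with matplotlib 3.10.9.

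The members and lists were chosen with earlier results of these data known, so no p over the list is given. Values on every array are given for the 2 genes with the smallest unadjusted p in each direction of each comparison and for TOP2A, MKI67, CCNB1, CDK1, PLK1, AURKA, BUB1B and FOXM1; other genes named with values were chosen after these were seen. Lists of further mitosis genes and of cell type markers had been drawn up, but no identifier of the array matched the mouse reference tables (0 of 29094), so neither list was used and no sequence is shown. Replicates are numbered in accession order, which is also the slide. Alternatives were quantile normalisation, normexp with quantile normalisation (offset 50, on the median signal, because no mean signal column was present), no filter, the mean of all probes, slide as a replicate block, only the groups compared, array weights, the deposited log2 values and leaving out each replicate; leaving out both replicates numbered 4, and the value table without control 4, were added after seeing the data.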

Additional observations from a re-analysis of the deposited data

Results flagged for a closer look

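Within groups of 4 arrays, single arrays stood far from the others for 14 of 57 sets of values by Dixon's test. Independent sets would give about 2.85 by chance, or 1 in 20. The sets covered only part of the 36 genes, and genes on the same array are not independent. The chance count is therefore only a rough guide, and the genes listed below are not a full list. Control replicate 4 accounts for 12 of the 14. On that array the log2 signal was -2.47 for AURKB (other controls -1.60 to -1.51), -1.50 for CDC25C (-0.96 to -0.94), 1.52 for KIF2C (2.13 to 2.21), 0.57 for KIF11 (1.43 to 1.60), 0.89 for TPX2 (1.80 to 1.91), 0.41 for TOP2A (1.61 to 1.75) and 0.83 for FOXM1 (1.47 to 1.58), each far below the others. It was 0.58 for CCNA2 (-0.14 to -0.08), 2.27 for BUB1 (0.59 to 0.83), 3.32 for CDK1 (1.89 to 1.97) and 1.19 for PLK1 (-1.72 to -1.42), each far above them. The median deviation of the 36 genes was -0.82 there, against -0.04 to 0.03 on the other controls. Its 75th percentile of intensity was 224.2, and the part of signal strength in these values was not tested.

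Outside control 4, BUB1B was 1.70 on 9-cisRA 2, where the other 9-cisRA arrays read 1.80 to 1.81, and KIF2C was 2.47 on mitotane 2, where the other mitotane arrays read 2.29 to 2.31.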

How the results depend on the processing

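No mitosis gene was called in any comparison under any of the 25 alternatives (24 for the interaction), leaving out each replicate included (0 to 0), except with array weights. These gave control 2 a weight of 8.81 and control 4 one of 0.04, and called 5788 of all transcripts for combined against control and 2003 for combined against 9-cisRA. Among them were 7 and 3 mitosis genes: CDC25C, KIF2C, MAD2L1, HMMR, ECT2, FOXM1 and CDCA8 in the first, AURKB, MAD2L1 and CDC20 in the second. That is 19.4% of the list beside 28.6% of all transcripts, and 8.33% beside 9.91%. With the slide as a replicate block, 2, 4, 4, 0, 2, 1 and 1 genes had an unadjusted p under 0.05 in the 7 comparisons, in the order in which they were counted above, beside 5.33%, 3.62%, 12.6%, 4.51%, 8.6%, 4.35% and 3.89% of all transcripts, and 0 were called.

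The median over the genes ranged over the alternatives from -0.07 to 0.20 for mitotane against control, 0.11 to 0.36 for 9-cisRA, -0.07 to 0.18 for the combination, -0.04 to 0.08 for combined against mitotane, -0.26 to -0.13 for combined against 9-cisRA, -0.20 to -0.11 for mitotane against 9-cisRA and -0.29 to -0.07 for the interaction.

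Sign changes of single genes were followed in part of the comparisons only, and AURKB in the combination against control, described above, was not among these. Those found were as follows, and the cause was not tested. The first 3 values of a gene are with array weights, with both replicates 4 left out, and from the value table without control 4, and the range is over single replicates left out. In 9-cisRA against control these were 0.11, 0.11 and 0.11 for BUB1 (-0.45 to 0.11), 0.12, 0.13 and 0.13 for CDK1 (-0.35 to 0.13), -0.10, -0.13 and -0.13 for TOP2A (-0.13 to 0.32) and 0.31, 0.44 and 0.44 for PLK1 (-0.53 to 0.44). In mitotane against control they were -0.21, -0.23 and -0.25 for CCNB1 (-0.23 to 0.20) and 0.20, 0.26 and 0.24 for PLK1 (-0.71 to 0.26). In the combination against control they were 0.068, 0.12 and 0.20 for PLK1 (-0.81 to 0.16). In the interaction they were -0.057, -0.023 and -0.067 for BUB1 (-0.015 to 0.55) and -0.22, -0.22 and -0.19 for CDK1 (-0.18 to 0.30).

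For 9-cisRA against control, MKI67 was 0.056 as the mean of its probes (-0.20 to 0.021 with replicates left out), and BUB1B ran from -0.024 to 0.052. For mitotane against 9-cisRA, AURKB was -0.020 with quantile normalisation, -0.0075 with normexp and -0.0058 from the value table with or without control 4 (-0.086 to 0.080). For the combination against control, MKI67 was -0.0075 with quantile normalisation, -0.039 with normexp, -0.0020 from the value table, -0.041 without both replicates 4 and -0.17 from the value table without control 4 (-0.12 to 0.10). CCNB1 was 0.028 as the mean of its probes (-0.34 to 0.095), and AURKA -0.043 from the value table without control 4.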
